A study of Mus musculus with 8 samples.

Results

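Ketone body synthesis and the wider fasting response of the liver were followed through 7 genes, taken by symbol from the 17810 genes listed: Acat1, Bdh1, Slc16a1, Fgf21, Pdk4, Vnn1 and Creb3l3. They were picked by name for their roles, by a rule that used no values of these livers. Earlier results of these data were known when the genes were chosen. All 7 had enough counts to be tested, among 12395 genes tested in all. RNA-Seq was performed on livers of male mice aged 5 months, 4 WT and 4 HKO, with 1 library per liver. Sample titles and column headers give each liver an animal number of its own, but the sample descriptions of all 4 WT livers begin with 1 shared number. The livers were taken as separate mice on the titles and headers, and if the WT livers were not, their SDs and n, and the p-values that rest on them, would reflect technical spread. Both genotypes were given a diet high in fat and deficient in choline (CD-HFD) for 3 months, were fasted before harvest and were perfused with PBS. In HKO mice, Cre recombinase driven by the albumin promoter removes miR-33 alleles flanked by loxP sites from hepatocytes, and WT mice were their littermates. Every liver had therefore received the diet, and no chow-fed liver was analysed here. The Cre driver acts in hepatocytes, while the libraries hold RNA of the whole liver, so fewer cells of a type and less RNA per cell cannot be told apart. Totals were 12174339 to 18735785 counts per liver, which puts 3 counts at 0.149 to 0.255 CPM (counts relative to the TMM-scaled library total), a floor that covers counting error only. Mir33 itself was not analysed here, so genotypes were taken from the labels.

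During fasting, hepatocytes take up fatty acids, oxidize them to acetyl-CoA and turn part of it into acetoacetate and β-hydroxybutyrate, which leave the liver as fuel for other organs. The nuclear receptor PPARα senses fatty acids and switches on many genes of this response, with Creb3l3 as a membrane-bound transcription factor that works beside it. miR-33 lies in an intron of the sterol regulator Srebf2 and represses transcripts that pair with its seed, bases 2 to 8 of the mature RNA.

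The miR-33 sequences show what the deletion removes, and the sites below show which of the 7 transcripts hold a match to a seed. Mature miRNAs are from RefSeq (GRCm38.p6, chr15:82198127-82198147 and chr15:82198167-82198188, plus strand), with the seed in capitals.
mmu-miR-33-5p: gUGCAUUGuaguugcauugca
mmu-miR-33-3p: cAAUGUUUccacagugcaucac
For each gene the longest 3'UTR in GENCODE M21 was searched, and a match was counted where it pairs with bases 2 to 8, or with bases 2 to 7 followed by an A. For miR-33-5p, Pdk4 was the only 1 of the 7 genes with a match, at position 231 of the 2098 bases of the 3'UTR of transcript Pdk4-201. Of 11536 tested genes with an annotated 3'UTR, 16.2% hold such a match. For the other strand, miR-33-3p, Acat1, Slc16a1 and Pdk4 held 1 match each, against 25.8% of the tested genes. The sites follow with the match in capitals, on the strand of the gene. The A that ends each Pdk4 match lies beyond the paired bases.
Pdk4, miR-33-5p site (minus strand, chr6:5485211-5485218): ttctcctttggCAATGCAAaatgactcctg
Pdk4, miR-33-3p site (minus strand, chr6:5484556-5484562): ctctacactctAACATTAacatatctatt
Acat1, miR-33-3p site (minus strand, chr9:53582086-53582092): gctcacacagaAAACATTtggttcccagg
Slc16a1, miR-33-3p site (plus strand, chr3:104657234-104657240): ttttccaaataAAACATTtattttatttt
These matches are descriptions of the sequence, and neither pairing nor repression was measured. Bdh1, Fgf21, Vnn1 and Creb3l3 held no match to either seed in 3'UTRs of 1807, 134, 689 and 431 bases.

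Levels fell in HKO livers for 5 of the 7 genes: Acat1 and Bdh1, which make ketone bodies, the hormone Fgf21, the kinase Pdk4 and the pantetheinase Vnn1. Vnn1, Pdk4 and Fgf21 were 4.06, 4.43 and 4.92 times higher in WT than in HKO livers, and Bdh1 and Acat1 1.64 and 1.38 times. The value for Fgf21 is loosely set, since the gene passed the filter on low counts only through the WT livers and held 2 to 13 counts in HKO livers. The monocarboxylate transporter Slc16a1 did not pass the test, and the transcription factor Creb3l3 was at 165 CPM in WT livers, against 166 CPM in HKO livers. Calls were made by edgeR's quasi-likelihood test at an adjusted p under 0.05 (Benjamini-Hochberg over all genes tested). Among all genes tested 5.03% were called, 3.37% lower and 1.66% higher in HKO livers, so that 33.0% of the calls were higher, against 16.0% with scaling to total counts alone. No member was called higher by edgeR, by DESeq2 or by limma-voom, and 0 were higher at an unadjusted p under 0.05, where 6 were lower. Of all 12395 genes tested, 2455 had an unadjusted p under 0.05 in edgeR, in either direction. Over all genes DESeq2 called 629 lower and 385 higher, and limma-voom 403 lower and 200 higher. The livers of the genotypes did not overlap for the same 5 genes, against 12.5% of all genes tested. Without the liver WT 2 only 3 of the 7 genes were called lower, Bdh1, Pdk4 and Vnn1.

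**Figure D1:**
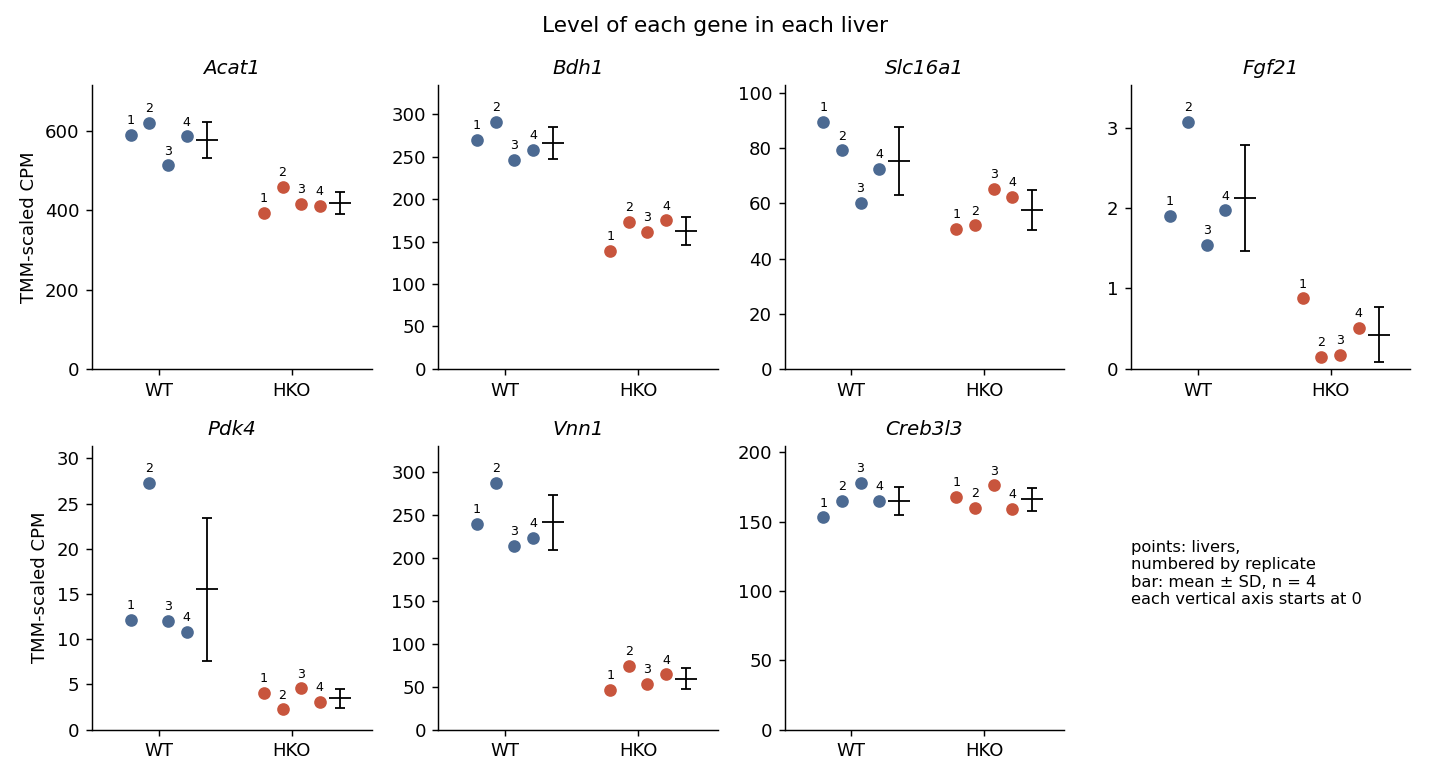
TMM-scaled CPM of the 7 genes in each of 4 WT and 4 HKO livers, with points numbered by replicate and the mean ± SD beside them. WT and HKO points do not overlap for Acat1, Bdh1, Fgf21, Pdk4 and Vnn1, and overlap for Slc16a1 and Creb3l3. WT 2 stands at 27.3 CPM for Pdk4, apart from the other WT livers at 10.8 to 12.1.

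Acat1 encodes the mitochondrial thiolase that joins 2 molecules of acetyl-CoA at the start of ketone body synthesis and splits acetoacetyl-CoA in the tissues that burn ketones. It is listed on the minus strand at chr9:53580522-53610351 and was the most abundant of the 7 genes. WT livers 1 to 4 gave 589, 621, 513 and 586 CPM, and HKO livers 394, 458, 415 and 410 CPM. Every HKO liver was below every WT liver. The means were 577 ± 45.5 and 419 ± 27.6 CPM (SD, n = 4 each), a log2 fold change of -0.46 ± 0.09 (SE) with a 95% interval of -0.65 to -0.27 and an adjusted p of 0.0133 in edgeR. The difference was small beside that of Vnn1, but the spread was small too, with a CV of 7.88% among WT and 6.58% among HKO livers. The call was lost without WT 2, the highest WT liver (log2 fold change -0.42, adjusted p = 0.0578), and kept without each of the other 7 livers.

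Bdh1, D-β-hydroxybutyrate dehydrogenase, reduces acetoacetate to β-hydroxybutyrate at the end of the pathway. The gene is listed at chr16:31422297-31458902 on the plus strand. Levels were 270, 291, 246 and 258 CPM in WT livers 1 to 4, and 139, 173, 161 and 175 CPM in HKO livers. The lowest WT liver was well above the highest HKO liver. With means of 266 ± 19.2 and 162 ± 16.5 CPM (SD, n = 4), the log2 fold change was -0.72 ± 0.09 (SE), with a 95% interval of -0.92 to -0.51 and an adjusted p of 0.00202. Bdh1 kept its call without any 1 of the 8 livers, where the log2 fold change ran from -0.75 to -0.65. Its deposited values were fractional in all 8 livers, but rounding moved none by more than 0.2 counts. An antisense gene, Gm15743, lies within it on the minus strand. Strand use in the counting is not given in the sources used here, so reads of the pair cannot be told apart. Gm15743 itself held 0 to 11 counts per liver.

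Slc16a1, the transporter Mct1 that carries lactate and ketone bodies across the cell membrane, is listed at chr3:104638664-104658463 on the plus strand. In WT livers 1 to 4 it was at 89.5, 79.2, 60.2 and 72.4 CPM. In HKO livers it was at 50.8, 52.0, 65.3 and 62.4 CPM. The ranges overlapped, since WT 3 was below HKO 3 and HKO 4. The means of 75.3 ± 12.3 and 57.6 ± 7.30 CPM (SD, n = 4) gave a log2 fold change of -0.39 ± 0.13 (SE), with a 95% interval of -0.66 to -0.11, an unadjusted p of 0.0105 and an adjusted p of 0.111 in edgeR. It passed the threshold in 2 of 17 alternatives, without WT 3 (log2 fold change -0.48, adjusted p = 0.0429) and with scaling to total counts alone (-0.47, adjusted p = 0.0279). Total count scaling also moved the median of all genes by less than 0.1, from 0.01 to -0.08 on the log2 scale.

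Fgf21 is a hormone of the fasted and nutrient-stressed liver, and its gene is listed at chr7:45613890-45615491 on the minus strand. It was the scarcest of the 7, with 23, 44, 31 and 30 counts in WT livers 1 to 4 and 13, 2, 3 and 6 counts in HKO livers. On the CPM scale these were 1.90, 3.07, 1.54 and 1.97 in WT livers, and 0.876, 0.154, 0.169 and 0.510 in HKO livers. Every WT liver was above every HKO liver, and HKO 2 and HKO 3 were at or under the floor of 3 counts. The means were 2.12 ± 0.66 and 0.427 ± 0.342 CPM (SD, n = 4), so the HKO livers varied among themselves by 79.9% of their mean. The log2 fold change was -2.30 ± 0.47 (SE), with a 95% interval of -3.32 to -1.27 and an adjusted p of 0.0184. Fgf21 was not tested when at least 10 counts were required in every liver. The call was lost without WT 2 (-2.06, adjusted p = 0.0735), and the log2 fold change ran from -2.96 to -1.96 over the 8 livers left out in turn.

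The sequence before the start of Fgf21 is shown since it held matches to 2 of the 5 motifs searched in the promoters of these genes. It is the RefSeq promoter on GRCm38.p6, chr7:45615491-45615740, minus strand, the 250 bases before the start, with motif matches in capitals.
Fgf21 promoter: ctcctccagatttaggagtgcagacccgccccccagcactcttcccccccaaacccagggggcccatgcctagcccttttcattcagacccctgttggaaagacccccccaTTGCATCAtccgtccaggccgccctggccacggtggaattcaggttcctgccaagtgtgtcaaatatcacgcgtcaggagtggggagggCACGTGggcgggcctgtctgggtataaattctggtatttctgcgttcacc
The first run in capitals matches the amino acid response element TGATGNAA, the element of Atf4, on the opposite strand, 139 bases before the start, and 3.97% of 32851 promoters of the same length hold it. The second is the E-box CACGTG, 50 bases before the start, held by 7.15% of the promoters and also by Slc16a1, 200 bases before its start. Creb3l3 held a direct repeat of AGGTCA spaced by 1 base, with 2 mismatches, in 1 of its 2 promoters, against 3.86% of all promoters. PPARα binds this type of element. The promoter with the match, chr10:81092542-81092841, lies inside the listed gene. The promoter at the 5' end of the listed gene held no match.
Slc16a1 E-box (plus strand, chr3:104638464-104638469): cgccgggtCACGTGgcgggaaggggggcgc
Creb3l3 direct repeat (minus strand, chr10:81092788-81092800): ctgtaagtAGGGGAGAGGTCAcacagaccc
The cAMP element TGACGTCA (1.79% of promoters) and the forkhead word TGTTTAC (3.65%) were in no promoter of these genes. Both strands were searched in 7 promoters of 5 genes (Bdh1, Creb3l3, Fgf21, Pdk4 and Slc16a1), each from 250 bases before to 50 bases after a start. Within these windows a match, or its absence, says nothing of binding.

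Pdk4, pyruvate dehydrogenase kinase 4, shuts pyruvate out of acetyl-CoA formation when fatty acids are burnt. The gene is listed at chr6:5483351-5496279 on the minus strand. WT livers 1 to 4 gave 12.1, 27.3, 12 and 10.8 CPM, and HKO livers gave 4.04, 2.24, 4.56 and 3.06 CPM. WT 2 was more than double any other WT liver, while the lowest WT liver was still above the highest HKO liver. The means were 15.5 ± 7.88 and 3.48 ± 1.03 CPM (SD, n = 4), with a log2 fold change of -2.15 ± 0.36 (SE), a 95% interval of -2.96 to -1.33 and an adjusted p of 0.0145 in edgeR. Without WT 2 the difference was smaller and kept its call. The call was lost without HKO 4 (-2.09, adjusted p = 0.0541), and the log2 fold change ran from -2.30 to -1.72 over the livers left out in turn. Per length, Pdk4 made up 6.69%, 14.6%, 7.47% and 7.23% of the summed level of Pdk1 to Pdk4 in WT livers 1 to 4. Its share in HKO livers was 2.83%, 1.49%, 3.99% and 2.09%, and these shares did not overlap. The more abundant kinases of the family, Pdk1 and Pdk2, had log2 fold changes of -0.43 ± 0.18 (adjusted p = 0.225) and -0.02 ± 0.08 (adjusted p = 0.943) in edgeR.

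Vnn1, vanin 1, splits pantetheine into pantothenate and cysteamine at the cell surface and is a well-known PPARα target in liver. The gene is listed at chr10:23894688-23905344 on the plus strand. Levels were 239, 287, 214 and 223 CPM in WT livers 1 to 4, against 46.0, 74.3, 53.0 and 64.2 CPM in HKO livers. The lowest WT liver was far above the highest HKO liver. Means of 241 ± 32.3 and 59.4 ± 12.5 CPM (SD, n = 4) gave a log2 fold change of -2.02 ± 0.15 (SE), with a 95% interval of -2.36 to -1.68 and an adjusted p of 0.000259. By its p it was number 3 of the 12395 genes tested. The call held without any 1 of the 8 livers (-2.15 to -1.92) and in all 17 alternatives. The other pantetheinase of the table, Vnn3, was at 81.1 ± 14.9 and 50.6 ± 14.3 CPM (SD, n = 4), with a log2 fold change of -0.68 ± 0.23 and an adjusted p of 0.140 in edgeR.

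Creb3l3, also called CREB-H, is a liver transcription factor held in the endoplasmic reticulum until proteases release it. It is listed at chr10:81084331-81098873 on the minus strand. WT livers 1 to 4 stood at 153, 165, 178 and 165 CPM, and HKO livers at 168, 160, 176 and 159 CPM. The HKO range lay within the WT range. The means were 165 ± 10.1 and 166 ± 8.12 CPM (SD, n = 4), with a log2 fold change of 0.00 ± 0.07 (SE), a 95% interval of -0.16 to 0.17 and an adjusted p of 0.990. A change of the size of Acat1 is outside this interval. Its values were fractional in 7 livers, where rounding moved none by more than 0.11 counts. Its sign turned under total count scaling, with at least 10 counts required in every liver and without WT 1, HKO 1 or HKO 3, within -0.09 to 0.04 on the log2 scale.

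**Figure D2:**
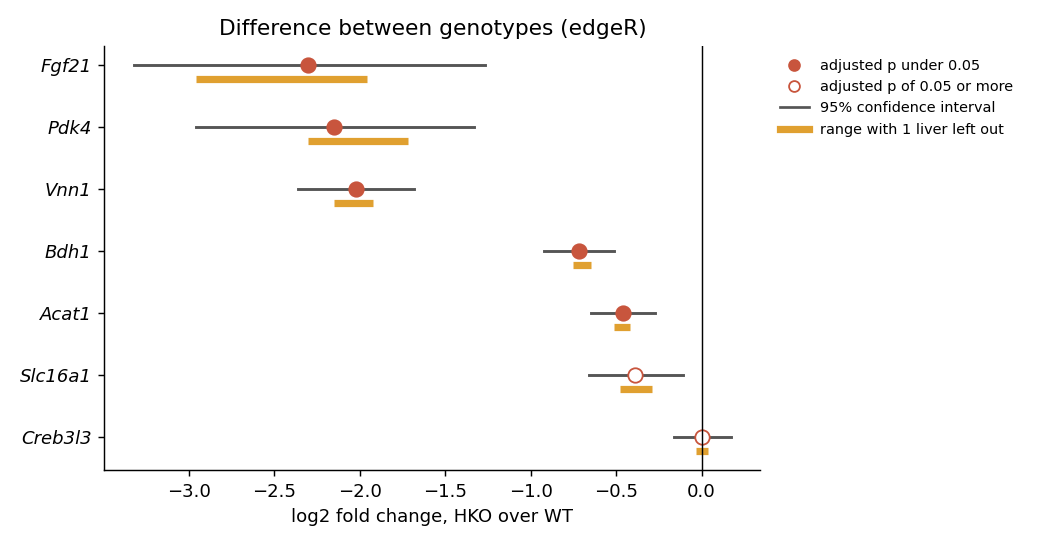
Log2 fold change of HKO over WT livers for the 7 genes (edgeR, n = 4 livers per genotype), with the 95% confidence interval and the range when each of the 8 livers is left out in turn. Fgf21, Pdk4 and Vnn1 lie near -2, Bdh1 at -0.72 and Acat1 at -0.46 with filled points for an adjusted p under 0.05, and open points mark Slc16a1 at -0.39 and Creb3l3 at 0.00.

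The livers within a genotype differed across these genes as follows. WT 2 was the highest WT liver for 5 of the 7 genes, and WT 3 the lowest for 5. Among HKO livers, HKO 1 was the lowest for 4, but it was the highest for Fgf21, at 1.05 above the mean of its genotype on the log2 CPM scale. Fgf21 and Pdk4 varied most within a genotype, with SDs of 0.39 and 0.62 in log2 CPM among WT livers and 0.88 and 0.44 among HKO livers. Creb3l3 varied least, with SDs of 0.09 and 0.07.

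**Figure D3:**
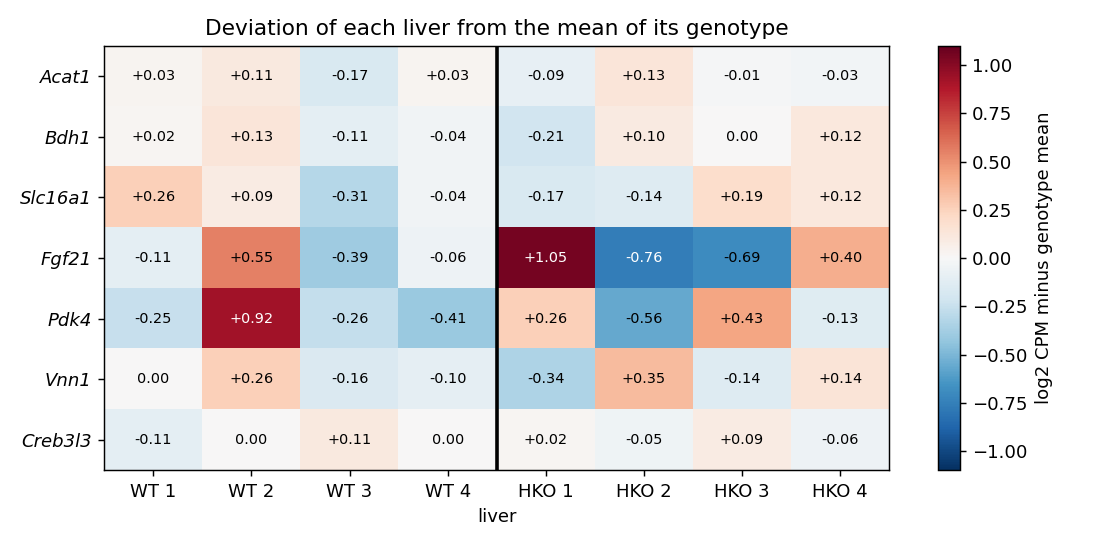
Log2 CPM of each gene in each liver minus the mean of that gene over the 4 livers of the same genotype, in red above and in blue below the mean. WT 2 is at or above the mean for all 7 genes, WT 3 is below it for 6, and the farthest values are Fgf21 in HKO 1 (1.05) and Pdk4 in WT 2 (0.92).

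Levels of different genes can be set side by side only per length, for which counts were divided by the exonic length of the gene and scaled to a common sum (TPM). In WT livers the order was Acat1 (450 ± 29.1 TPM), Vnn1 (293 ± 43.3), Bdh1 (201 ± 17.5), Creb3l3 (162 ± 20.9), Slc16a1 (49.7 ± 6.48), Pdk4 (13.1 ± 6.85) and Fgf21 (6.54 ± 2.07), each with the SD over 4 livers. The ranges of Bdh1 and Creb3l3 overlapped, as did those of Pdk4 and Fgf21, though each pair kept its order within each of the 4 livers. In HKO livers the order was Acat1 (290 ± 36.3 TPM), Creb3l3 (133 to 154), Bdh1 (95.5 to 124), Vnn1 (64.1 ± 16.4), Slc16a1 (33.6 ± 1.77), Pdk4 (2.54 ± 0.659) and Fgf21 (1.19 ± 1.00), with the SD or the range over 4 livers, and only the ranges of Pdk4 and Fgf21 overlapped. Vnn1 thus went from rank 2 to rank 4 and Creb3l3 from rank 4 to rank 2. TPM values were not TMM-scaled and serve only for the order within a genotype.

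**Figure D4:**
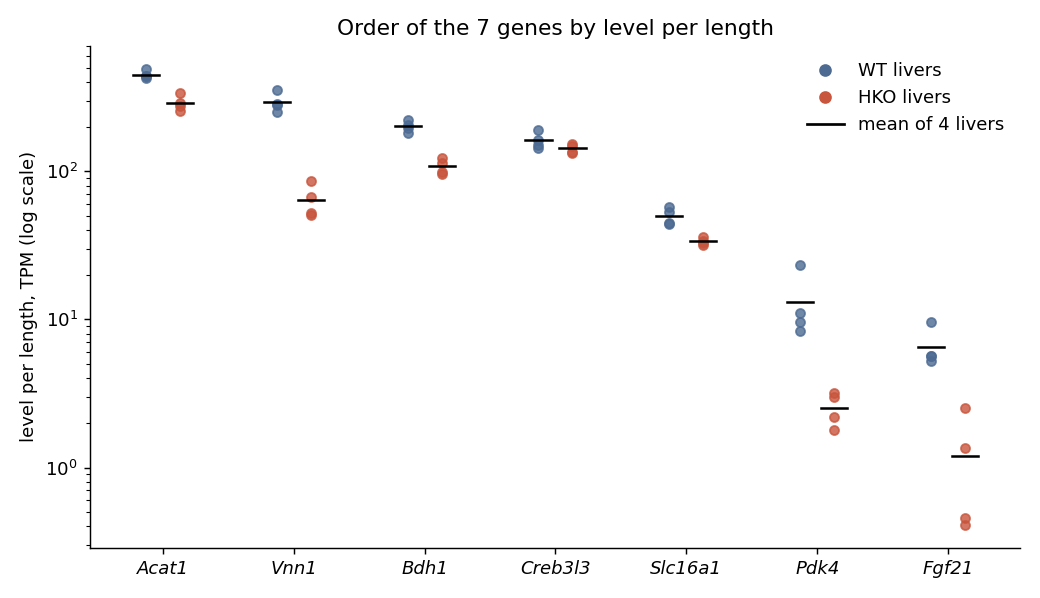
Level per length in TPM on a log scale for the 7 genes, ordered by their mean in WT livers, with 1 point per liver and a line at the mean of 4 livers. Vnn1 stands above Bdh1 and Creb3l3 in WT livers at 293 TPM and below both in HKO livers at 64.1 TPM, while Creb3l3 stays between 133 and 190 TPM in all 8 livers.

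Of the 11 tested genes of ketone body metabolism, 4 were called lower and 0 higher in HKO livers (edgeR, adjusted p under 0.05). Among all genes tested, 3.37% were called lower and 1.66% higher. DESeq2 called 5 lower and 0 higher, and 0 were higher at an unadjusted p under 0.05. The list had a median log2 fold change of -0.46, against 0.01 over all genes tested. Acat1 and Bdh1 were among the calls. Without WT 2 the list had 2 calls instead of 4, with Acat1 among those lost. Among the transporters, Slc16a7, the related carrier Mct2, had the largest difference of the list at -1.01 ± 0.27, with means of 338 ± 42.7 and 168 ± 56.4 CPM, and missed the threshold (adjusted p = 0.0815). Oxct1, the enzyme that lets other tissues use ketones and is scarce in hepatocytes, was at 4.08 ± 0.966 and 5.44 ± 1.04 CPM (0.41 ± 0.21, adjusted p = 0.320).

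Of the genes around PPARα, its partners and fasting targets, 20 of 36 tested were called lower in HKO livers and 0 higher. Over all genes tested the shares were 3.37% and 1.66%. The median log2 fold change of the list was -0.74. DESeq2 called 24 lower and 0 higher, and 1 was higher at an unadjusted p under 0.05. The list includes Fgf21, Pdk4, Vnn1 and Creb3l3. Of the 32 others, 17 were called lower, and their median log2 fold change was -0.69. The livers did not overlap for 27 of the 36, against 12.5% of all genes tested. Ppara itself fell from 670 ± 9.52 to 535 ± 35.1 CPM (-0.33 ± 0.08, adjusted p = 0.0358), and this call was kept only with HKO 1 left out among the 8 livers left out in turn. Those with the smallest p besides Vnn1 were the peroxisomal thiolase Acaa1b (-1.59 ± 0.11, adjusted p = 9.4e-05), the monoglyceride lipase Mgll (-1.01 ± 0.10, adjusted p = 0.000446), the lipid droplet protein Plin2 (-1.36 ± 0.14, adjusted p = 0.000861), the peroxisome division gene Pex11a (-1.45 ± 0.16, adjusted p = 0.0012) and the fatty aldehyde dehydrogenase Aldh3a2 (-1.14 ± 0.14, adjusted p = 0.00154). Without WT 2 the list had 13 calls. The fasting-induced lipase inhibitor Angptl4 was not called, at 69.9 ± 7.69 and 66.4 ± 13.7 CPM (-0.07 ± 0.14, adjusted p = 0.837).

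Around Creb3l3, 3 of 14 tested genes were called lower and 0 higher, against 3.37% and 1.66% of all genes tested. The median log2 fold change was -0.10. DESeq2 and limma-voom also called 3 lower and 0 higher, and 0 were higher at an unadjusted p under 0.05. The 3 are among the known targets of the factor in this list, and carry or store lipid. The other targets listed were not called in edgeR: Apoa5 (-0.12 ± 0.13, adjusted p = 0.682), Saa1 (-0.09 ± 0.74, adjusted p = 0.967) and Apcs (-0.49 ± 0.22, adjusted p = 0.258). Apoa4, an apolipoprotein of secreted lipid particles, fell from 1770 ± 489 to 356 ± 83.6 CPM (-2.31 ± 0.23, adjusted p = 0.00154), and Apoc2, the cofactor of lipoprotein lipase, from 134 ± 12.3 to 73 ± 16.9 CPM (-0.87 ± 0.15, adjusted p = 0.0101). Cidec, which fuses lipid droplets, fell from 31.3 ± 15.6 to 1.27 ± 1.37 CPM (-4.60 ± 0.77, adjusted p = 0.025), a call that was lost without WT 1, WT 2, WT 3 or HKO 2. It passed the filter on low counts only through the WT livers, with 48, 15, 9 and 2 counts in HKO livers 1 to 4. The other tested factors of the Creb3 family and the proteases that release them were not called, and Creb3l4 had too few counts to be tested.

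Of the pyruvate dehydrogenase complex, its kinases, phosphatases and the mitochondrial pyruvate carrier, 3 of 12 tested genes were called lower and 0 higher. The shares among all genes tested were 3.37% and 1.66%. The list had a median log2 fold change of -0.09. DESeq2 likewise called 3 lower and 0 higher, and 0 were higher at an unadjusted p under 0.05. Pdha1, the catalytic subunit that Pdk4 phosphorylates, fell from 304 ± 18.0 to 223 ± 16.2 CPM (-0.44 ± 0.08, adjusted p = 0.0113). Mpc1, a subunit of the carrier, fell from 349 ± 31.0 to 255 ± 26.8 CPM (-0.45 ± 0.10, adjusted p = 0.0233), and this call was lost without WT 1, WT 2, HKO 1 or HKO 3. The kinase and a subunit that it inhibits were thus both lower.

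Among pantetheinases and genes of coenzyme A turnover, 3 of 11 tested genes were called lower and 0 higher. Over all genes tested these shares were 3.37% and 1.66%. The median log2 fold change of the list was -0.27. DESeq2 called 5 lower and 0 higher, and 2 were higher at an unadjusted p under 0.05. Coasy, the last enzyme of coenzyme A synthesis, fell from 75.0 ± 6.99 to 57.2 ± 2.04 CPM (-0.39 ± 0.08, adjusted p = 0.0213). Pank3, a pantothenate kinase at the start of the pathway, fell from 216 ± 26.1 to 154 ± 23.1 CPM (-0.49 ± 0.12, adjusted p = 0.036). Pank3 kept its call only without WT 4 or HKO 1, and Coasy lost its call in 4 of the 8 fits with a liver left out. Without WT 1, WT 2, HKO 3 or HKO 4, Vnn1 was the only call of the list.

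Fgf21 was the only gene called among its receptors and transcription factors, with 1 of 11 tested genes lower and 0 higher. Of all genes tested, 3.37% were called lower and 1.66% higher. The list had 0 calls without WT 2. DESeq2 also called 1 lower and 0 higher, and 2 were higher at an unadjusted p under 0.05. The remaining 10 genes, none of them called, all had log2 fold changes above 0. Their median was 0.22, against 0.01 over all genes tested. They include the coreceptor Klb (0.29 ± 0.21, adjusted p = 0.495) and Atf4, a factor that drives Fgf21 under amino acid stress (0.16 ± 0.11, adjusted p = 0.455).

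Genes driven by glucagon, glucocorticoids and Foxo1 form the hormonal arm of fasting. The list also holds receptors and factors that act in it, Gcgr, Creb1, Crtc2, Foxo1, Foxo3 and Nr3c1, none of which was called. Of 19 tested genes 3 were called higher and 1 lower, against 1.66% and 3.37% of all genes tested. A log2 fold change above 0 was seen for 17, which include these receptors and factors. The median was 0.30, against 0.01 over all genes tested. Tat, a tyrosine-degrading enzyme induced by glucocorticoids, rose from 520 ± 117 to 954 CPM, with HKO livers between 794 and 1150 CPM (0.87 ± 0.17, adjusted p = 0.0165). Irs2, an insulin receptor substrate, rose from 13.6 ± 0.923 to 20.4 ± 3.65 CPM (0.58 ± 0.13, adjusted p = 0.0264), and the factor Klf15 from 98.6 ± 15.7 to 136 ± 12.6 CPM (0.47 ± 0.11, adjusted p = 0.0373). The paper names Irs2 and Klf15 among predicted miR-33 targets that were higher in HKO livers, with a potential direct role. That role was not tested here. Pcx, pyruvate carboxylase, fell from 331 ± 44.0 to 220 ± 36.8 CPM (-0.59 ± 0.13, adjusted p = 0.0239). Of these calls Tat was lost without WT 1, while Irs2, Klf15 and Pcx were kept in 3, 2 and 3 of the 8 fits with a liver left out. The list had 0 calls without WT 1, 1 without WT 2, WT 3 or HKO 4, and 2 without HKO 2. The genes of glucose output, Pck1 (0.38 ± 0.19, adjusted p = 0.313) and G6pc (0.14 ± 0.22, adjusted p = 0.788), were not called.

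**Figure D5:**
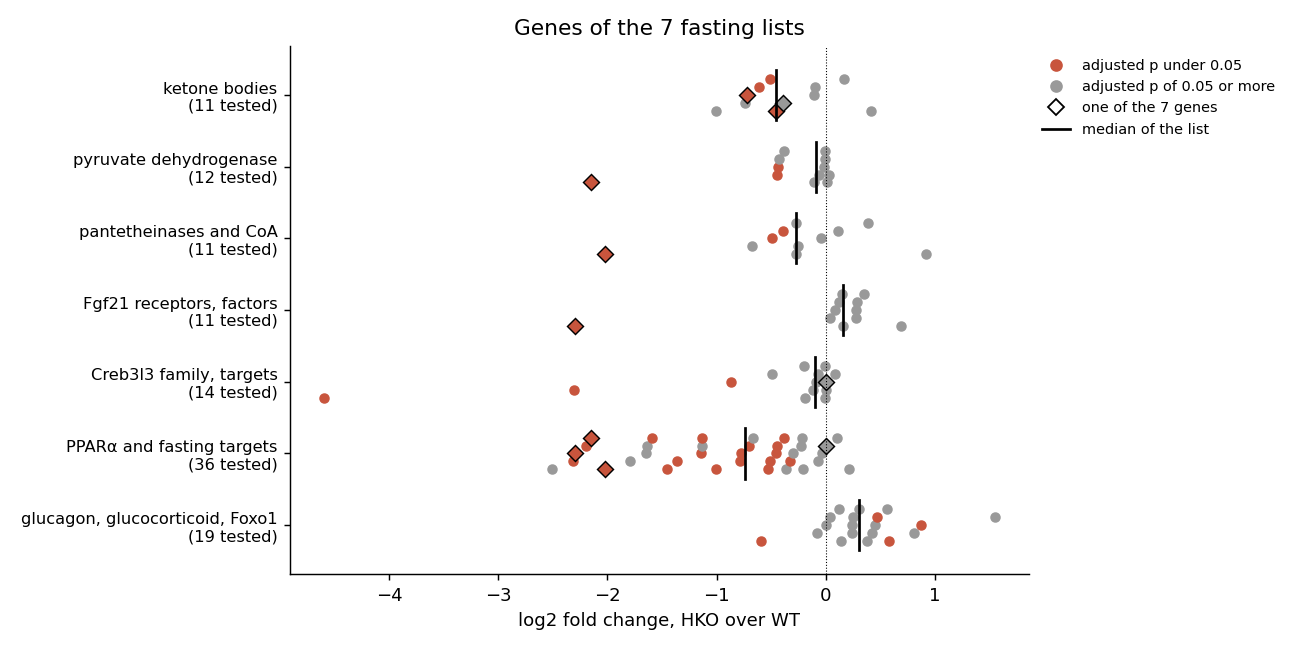
Log2 fold change of HKO over WT for every tested gene of the 7 lists, with genes at an adjusted p under 0.05 in red, the 7 genes followed here as diamonds and a bar at the median of each list. The PPARα list has its median at -0.74 and 20 of 36 genes in red, all left of 0, while the list of glucagon, glucocorticoid and Foxo1 genes has its median at 0.30.

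The 3 genes nearest to each of the 7 were found by the root mean square distance between log2 CPM profiles over the 8 livers, each centred on its own mean, among 11870 tested genes with a mean of at least 1 CPM. The distances are descriptions over 8 livers. They were not scaled to how far a gene itself moves over the livers. The root mean square deviation of a gene from its own mean was 1.23 for Fgf21, 1.13 for Pdk4 and 1.04 for Vnn1. It was 0.376 for Bdh1, 0.265 for Slc16a1, 0.247 for Acat1 and 0.0689 for Creb3l3. Bdh1 was nearest to Eci1 and Ech1 (0.0911 and 0.0954), which are enzymes for the oxidation of unsaturated fatty acids, and to Arpp19 (0.103). Acat1 was nearest to 4930402H24Rik (0.0499), the peroxisomal thiolase Acaa1a (0.0588) and Taldo1 (0.0653). For Vnn1 these were Pnldc1 (0.162), Slc22a29 (0.211) and Ifi27l2b (0.234), and Ifi27l2b was also among those of Pdk4, after Ubd (0.358) and Fam126a (0.382). Fgf21, which moved most over the livers, also had the largest distances, with Gstm3 at 0.411, Bhlhb9 at 0.444 and the acyl-CoA thioesterase Acot2 at 0.471. Slc16a1 was nearest to Ccdc124 (0.0784), Mettl27 (0.0895) and Vcpkmt (0.0929), and Creb3l3 to Ppwd1 (0.0375), Ep300 (0.0388) and Zfp672 (0.0428).

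Markers of the cell types in liver were set beside these results, and their part in them was not tested. Summed levels of 7 hepatocyte markers were 95000 to 127000 CPM in WT and 89400 to 141000 CPM in HKO livers. Of the 7, 3 were called higher in HKO livers (Serpina1c, Fga and Cps1), against 1.66% of all genes tested. Sums over macrophage markers were 86.0 to 225 and 63.9 to 213 CPM, and over endothelial markers 59.7 to 195 and 98.1 to 220 CPM. For stellate cell markers they were 336 to 431 and 286 to 417 CPM, for cholangiocyte markers 40.5 to 51.0 and 30.9 to 111 CPM, and for lymphocyte markers 10.3 to 16.4 and 13 to 20.3 CPM. These ranges overlapped between genotypes for all 6 cell types. Sums follow the most abundant markers, and median log2 fold changes of the tested markers differed by cell type. They were 0.49 for hepatocytes, 0.49 for endothelial cells, 0.61 for cholangiocytes, -0.01 for macrophages and -0.12 for stellate cells. The 1 tested lymphocyte marker was at 0.20. Of the adipocyte markers the WT livers held at most 0.0697 CPM and the HKO livers at most 3.78 CPM. In the order of sample numbers given by the deposited headers all HKO livers come before all WT livers, and an effect of that order and one of genotype cannot be told apart.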

How the data were processed

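Liver RNA of 4 WT and 4 HKO mice was sequenced, 1 library each. The labels name both an rRNA depletion kit and a small RNA library kit, so the library type is uncertain. Per the labels and file headers, the authors aligned reads with STAR and deposited estimated counts per gene from Partek's expectation-maximization quantification, not normalized. This method splits reads shared by genes. Versions, genome build and strand use are not given in the sources used here; 66.0% of 17789 genes matched to RefSeq had its GRCm38.p6 start, as did 6 of the 7 genes. No column was left unmapped.

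Estimated counts were rounded and tested with edgeR 4.0.16 (R 4.3.3): TMM scaling, the default expression filter (minimum count 10), robust quasi-likelihood test and Benjamini-Hochberg adjustment over 12395 genes, with a threshold of 0.05. SDs are over livers, n = 4 per genotype. SEs and intervals of log2 fold changes come from edgeR's quasi-likelihood fit, which draws on the spread of all genes tested. Log2 CPM used a prior count of 2. Alternatives were DESeq2 1.42.0, limma-voom 3.58.1, scaling by RLE, by total counts or by the upper quartile, 2 other filters, legacy quasi-likelihood, a replicate block, a fold above 1.5 and each liver left out in turn. On simulated counts for 12395 genes with 200 changed, edgeR recovered 70% of those with a log2 change of 1 and 90% of those with 2, and 5.33% of its calls were false. An exact permutation test of 4 against 4 livers cannot go below 0.0286.

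Genes, lists and tests were chosen with earlier results of these data known. Named in addition to the 7 genes were Ppara, of each list up to 6 genes with the smallest adjusted p under 0.05, and the 3 genes nearest to each of the 7. Slc16a7, Oxct1, Pdk1, Pdk2, Vnn3, Angptl4, Klb, Atf4, Pck1, G6pc, Apoa5, Saa1 and Apcs were named after their values were seen. Some genes of the lists are counted but not reported by name here. Exonic lengths came from GENCODE M21 for 17129 genes. Python 3.11.15, numpy 2.4.6, pandas 2.3.3 and matplotlib 3.10.9 were used.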

Additional observations from a re-analysis of the deposited data

Results flagged for a closer look

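In groups of 4 livers, 1 liver stood apart from the others by Dixon's ratio for 3 of the genes with values above. Pdk4 was at 27.3 CPM in WT 2, with the other WT livers at 10.8 to 12.1 CPM. For Cidec the same liver gave 54.7 CPM, where the rest of the WT livers lay between 21.3 and 25.0 CPM. Mgll was at 148 CPM in HKO 3, against 135 to 137 CPM in the other HKO livers. Across the 52 groups of 4 livers examined, chance at 1 in 20 gives about 3 such livers, the number seen.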

How the results depend on the processing

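With each liver left out in turn, 212 to 597 genes were called in all, 3 to 6 of the 7 genes were called lower and 0 higher in any fit, and 5 to 6 of them did not overlap. List by list the calls ran from 2 to 5 for ketone bodies, 2 to 3 for pyruvate dehydrogenase, 1 to 3 for coenzyme A, 0 to 1 for Fgf21, 2 to 3 for Creb3l3, 13 to 20 for PPARα and 0 to 4 for glucagon and glucocorticoid genes. The lowest total, 212, came without WT 2, with 272 without WT 1 and 364 without HKO 4. DESeq2 called 1014 genes in all and 5 of the coenzyme A list. A fold above 1.5 added to the threshold left 367 genes in all, 2 for ketone bodies, 1 for pyruvate dehydrogenase, 1 for coenzyme A and 2 of the glucagon and glucocorticoid list. With at least 10 counts in every liver Fgf21 was not tested, which left 0 calls in its list, and Cidec was not tested either. Creb3l3 turned to -0.0887 under total count scaling and to -0.0027 with that filter, and its log2 fold change ran from -0.0306 to 0.04 with a liver left out, below 0 without WT 1, HKO 1 or HKO 3 (-0.0306, -0.0041 and -0.0264). Total count scaling made 16.0% of all calls higher in HKO livers, against 33.0% with TMM, and ended the call of Klf15 (adjusted p = 0.0826). The cause of these moves was not tested, apart from the genes that a filter removes.

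The replicate numbers belong to different mice, and same-numbered livers did not deviate together (r of -0.0624, 0.0116, -0.0847 and -0.148 over genes, with 0 of 4 WT livers nearest to the HKO liver of its number). With the replicate block 456 genes were called in all, 4 of the 7 genes were called lower, the glucagon and glucocorticoid list had 2 calls, and Pdk4 missed the threshold (-2.05, adjusted p = 0.0627), as did Cidec, Irs2, Klf15 and Ppara (adjusted p from 0.0554 to 0.0829). At these depths Fgf21 held 2 to 13 counts in HKO livers, where counting error is large. The part of counting error in the spread of these livers was not tested.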
